A study of Mus musculus with 14 samples.

Results

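The neurons described here are the E16 spiral ganglion cells in which no molecule of Lypd1 was counted, compared between the apical and the basal portion of the cochlea. A cell was a member when its Lypd1 value was 0 in the deposited normalized table, and 1323 of the 2478 cells at embryonic day 16 (E16) met this rule, out of 5441 cells in the whole series. Lypd1 encodes a small membrane-anchored protein of the Ly6 family, and its gene lies on chromosome 1 from 125867622 to 125913101 of the mm10 build. The other 1155 E16 cells, with Lypd1 above 0, served as the comparison class. The members were thus chosen by their measured Lypd1 count, so its own values are given as a description and were not tested.

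Spiral ganglion neurons carry sound signals from the hair cells of the cochlea to the brainstem. Type I neurons contact inner hair cells and fall into the subtypes IA, IB and IC, of which IA is known for calretinin (Calb2) and IB and IC for markers such as Calb1, Pou4f1 and Lypd1, while type II neurons contact outer hair cells. The cochlea is ordered by frequency, with high tones at the base and low tones at the apex, and its neurons and hair cells mature earlier at the base than at the apex.

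The study profiled single cells of the mouse spiral ganglion by droplet sequencing at 3 embryonic ages and after birth, in 14 libraries. All groups used here came from CD1 mice, with no genetic change and no treatment named, and tissue of 5 embryos was pooled, with separate litters for separate replicates. E16 ganglia were cut at the middle turn, which gave 3 apical and 3 basal libraries that share replicate numbers 1 to 3, and cells were released with trypsin. That an apical and a basal library of the same number came from the same pool is read from these numbers and the described cut, since the labels do not say so in words. Libraries of whole ganglia at E14 (976 Lypd1-negative cells, trypsin) and E18 (447 cells, papain) were used for 1 comparison of ages. Some sensory epithelium and mesenchyme remained on the dissected tissue. A replicate is thus a pool of embryos. For position, the p-values set the difference between portions against its spread over the 3 pairs of the same number. Those of the comparison of Lypd1 classes set the difference between classes against its spread over libraries of a portion. Those of the comparison of ages set the difference against the spread between pools. In each comparison edgeR estimates that spread partly from all tested genes together, so a p-value does not rest on the gene's own libraries alone.

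Lypd1-negative cells took a smaller share of the cells at the apex than at the base. They made up 47.3%, 41.2% and 49.2% of the cells in apical libraries 1 to 3 (exact binomial 95% intervals 41.7 to 52.8%, 37.0 to 45.4% and 44.7 to 53.7%), which is 155, 224 and 244 cells. In basal libraries 1 to 3 they made up 63.4%, 70.0% and 55.0% (56.9 to 69.6%, 65.6 to 74.1% and 50.0 to 59.9%), or 149, 326 and 225 cells. All 3 basal shares lay above all 3 apical shares. The intervals cover counting error only.

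A count of 0 depends on how deeply a cell was read, and depth differed between libraries. The median was 5233, 6416 and 6930.5 UMIs (unique molecular identifiers, the counted molecules) per Lypd1-negative cell in the apical libraries and 9769, 2816.5 and 7104 in the basal libraries, so basal library 2 was the shallowest and basal library 1 the deepest. After every cell was thinned to 2500 UMIs, the negative share was 57.0%, 49.1% and 55.3% at the apex and 71.4%, 75.7% and 60.9% at the base, still without overlap, and negative cells were then the majority in apical libraries 1 and 3. Cells just outside the rule, with exactly 1 Lypd1 molecule, numbered 35, 58 and 36 at the apex and 13, 35 and 31 at the base. Calb2 stood at 37.7, 75.6 and 210 CPM (the count of a gene scaled to the total of the summed cells) in the summed apical cells with no Lypd1, at 10.4, 33.2 and 62.5 CPM in those with 1 molecule, and at 6.27, 6.08 and 26.4 CPM in those with 2 or more. In the basal libraries the same order of Lypd1 counts gave 154, 319 and 641 CPM, then 166, 183 and 419 CPM, then 26.8, 40.1 and 150 CPM. Cells next to the threshold thus held less Calb2 than members in 5 of 6 libraries and more in basal library 1, where only 13 such cells were found.

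**Figure D1:**
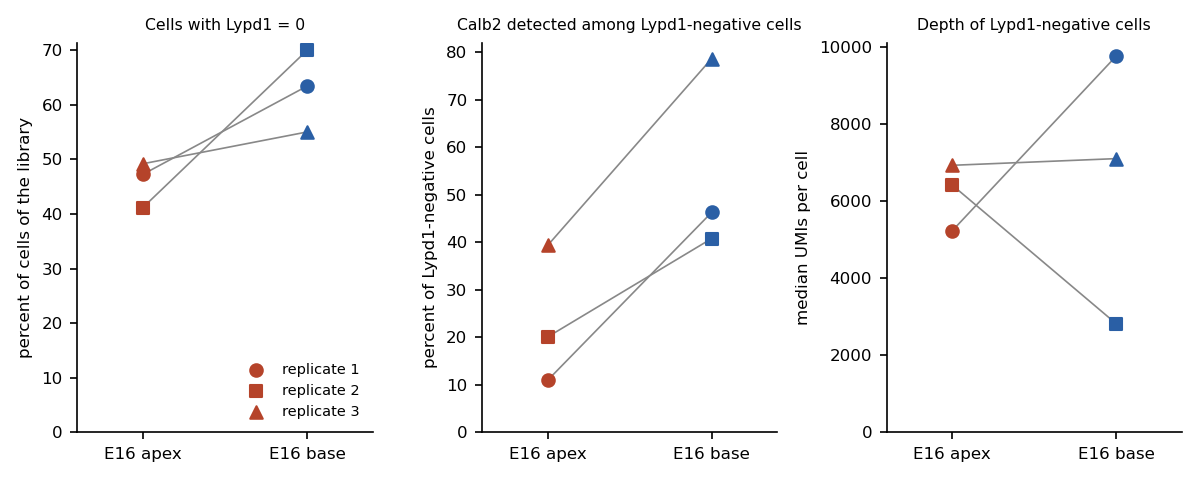
Share of E16 cells with no Lypd1 count, share of those cells with a Calb2 count, and median UMIs per cell, each plotted by library with the portions of 1 replicate number joined by a line. Lypd1-negative shares run from 41.2% to 49.2% at the apex and from 55.0% to 70.0% at the base, and the depth of basal library 2 (median 2816.5 UMIs) is below all others.

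The members had the RNA of neurons in both portions. Tubb3, the neuronal tubulin, had a molecule in 97.9% to 99.4% of thinned cells per library (98.5% to 100% unthinned) and stood at 2082, 1934 and 1702 CPM at the apex and 1967, 1944 and 1767 CPM at the base, with overlapping portions (log2 difference -0.02, SE 0.08, adjusted p = 0.96 in edgeR). Isl1, a transcription factor of sensory neurons, overlapped as well, with 800 to 889 CPM at the apex and 820 to 886 CPM at the base. Col1a1 of mesenchyme had a molecule in 0% to 1.35% of thinned cells (0% to 2.01% unthinned). The haemoglobin gene Hbb-bs had a molecule in 55.5%, 45.4% and 8.68% of thinned apical cells and 50.0%, 27.5% and 5.33% of thinned basal cells (78.1%, 79.0% and 26.6%, and 89.3%, 33.7% and 15.1%, unthinned).

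Position separated 381 genes within the Lypd1-negative cells. UMI counts were summed over the member cells of each library, which gave 822734, 1428854 and 1636372 UMIs at the apex and 1423683, 936054 and 1600234 at the base, and portions were compared with edgeR's quasi-likelihood test with the replicate number as a block. Of 10131 tested genes, these 381 (3.76%) passed a Benjamini-Hochberg adjusted p of 0.05, with 150 (1.48%) higher at the apex and 231 (2.28%) higher at the base. The difference had the same sign in all 3 pairs for 148 of the apical and 228 of the basal genes. In such sums, fewer cells with a gene and less RNA of it per cell cannot be told apart. Without the block 104 genes passed, and with DESeq2 93, all of them among the 381 in both cases. Leaving out 1 replicate pair gave 558 (without pair 1), 240 (without pair 2) and 253 (without pair 3).

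The 15 genes named for a higher level at the base included the adhesion genes Cntn5, Lsamp, Cadm2 and Pcdh20 and the calcium-binding proteins S100b and Calb2. Cntn5, an adhesion molecule of the contactin family (chromosome 9, 9660891 to 10904775, protein coding), stood at 390, 251 and 206 CPM in apical libraries 1 to 3 and at 1308, 1366 and 1167 CPM in the basal ones. Every basal library lay above every apical library, and the log2 difference of apex minus base was -2.26 (SE 0.11, adjusted p = 5.7e-16). A Cntn5 molecule was found in 54.8%, 36.1% and 30.6% of thinned apical cells and in 88.5%, 89.3% and 85.8% of thinned basal cells (67.1%, 55.4% and 53.3%, and 98.0%, 86.8% and 94.2%, unthinned). Both the level and the share of cells with Cntn5 therefore separated the portions. Lsamp, another adhesion molecule of neurons, stood at 111, 72.8 and 97.2 CPM at the apex and 320, 260 and 345 CPM at the base (log2 -1.77, SE 0.10). It was found in 17.6% to 24.8% of thinned apical and 46.3% to 53.4% of thinned basal cells, and its portions did not overlap on either scale.

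S100b, a calcium-binding protein of glia and some neurons, had the largest fitted difference. It was counted 3, 0 and 5 times at the apex and 47, 46 and 49 times at the base, or 3.65, 0 and 3.06 against 33.0, 49.1 and 30.6 CPM (log2 -4.14, SE 0.40, adjusted p = 7.9e-09). Its pair differences of log2(CPM + 1) were -2.87, -5.65 and -2.96. None of the 216 thinned cells of apical library 2 held an S100b molecule, which allows a share of up to 1.39% of cells with a molecule at that depth and sets no limit on cells that express the gene, while 5.78% to 10.2% of thinned basal cells held one. The glial list as a whole did not move with it, since its 8 members summed to 59.5 to 76.6 CPM at the apex and 68.1 to 75.9 CPM at the base, with 0 of 2 tested members called.

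Calb2, the calretinin gene that marks type IA neurons, differed by a similar ratio within each pair although its level rose several-fold from pair to pair. It stood at 37.7 CPM at the apex against 154 CPM at the base in pair 1, at 75.6 against 319 CPM in pair 2 and at 210 against 641 CPM in pair 3. The pair differences of log2(CPM + 1) were -2.0, -2.06 and -1.61. The portions overlap when pairs are ignored, because the apex of pair 3 lies above the base of pair 1. The log2 difference was -1.85 (SE 0.11, adjusted p = 5.5e-14), and without the block the call was lost (adjusted p = 0.084). Calb2 was found in 7.10%, 11.1% and 24.4% of thinned apical cells and 23.0%, 41.4% and 61.3% of thinned basal cells. Pcdh20, a protocadherin and another marker on the type IA list, was lower at the apex without overlap, at 6.08, 7.70 and 15.3 against 34.4, 41.7 and 33.7 CPM (log2 -1.82, SE 0.26).

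The other genes named for a higher level at the base were Plekha7, a protein of cell junctions (log2 -2.86, SE 0.38), the dystrophin relative Dytn (-2.29, SE 0.27), and decorin, Dcn, an extracellular matrix proteoglycan (-2.19, SE 0.18). They were followed by the copine Cpne9 (-1.92, SE 0.28), the synaptic adhesion molecule Cadm2 (-1.91, SE 0.19), the actin-capping tropomodulin Tmod1 (-1.89, SE 0.24), Fam101b (-1.88, SE 0.25), the signalling adaptor Dok1 (-1.85, SE 0.23), the cytidine deaminase Cda (-1.82, SE 0.17) and the adrenergic receptor Adra2c (-1.68, SE 0.29). Dcn stood at 14.6, 16.1 and 21.4 CPM at the apex and 63.2, 99.4 and 75.6 CPM at the base. Dcn is also made by mesenchyme, whose 9 listed markers summed to 24.3 to 39.1 CPM at the apex and 37.9 to 53.1 CPM at the base, with Col1a2 called higher at the base (-1.45, SE 0.40) and Col1a1 absent from thinned apical cells. Col1a2 was low, at 3.84 CPM on average at the apex and 10.9 CPM at the base, and did not pass in DESeq2 or without the block. The part of mesenchymal RNA in the difference of Dcn was not tested. Of the 15 basal genes, 14 had portions that did not overlap, Calb2 being the exception.

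At the apex, the genes with the largest differences included a peptide hormone, G protein regulators and transcription factors of young neurons. Uts2b, a peptide of the urotensin family (chromosome 16, 27353322 to 27370239, protein coding), stood at 18.2, 55.3 and 40.3 CPM at the apex and 4.92, 3.2 and 1.25 CPM at the base (log2 3.53, SE 0.35, adjusted p = 1.3e-08). Only 2.58%, 7.87% and 7.02% of thinned apical cells held a Uts2b molecule, and 2.03%, 0.820% and 0.889% of thinned basal cells. The apical shares lie above the basal ones, but the gap in pair 1 is small. Etv4, a transcription factor of the ETS family that acts downstream of FGF signals, stood at 62.0, 97.3 and 64.2 CPM against 14.0, 15 and 22.5 CPM (log2 1.99, SE 0.19, adjusted p = 8.5e-09). It was found in 12.9%, 21.3% and 15.3% of thinned apical cells and in 4.05%, 3.69% and 2.22% of thinned basal cells (21.3%, 38.4% and 31.1%, and 11.4%, 3.37% and 10.2%, unthinned). Igfbp2, which binds insulin-like growth factors, stood at 71.7, 113 and 59.9 CPM against 21.8, 34.2 and 16.9 CPM (log2 1.73, SE 0.16), and its portions did not overlap.

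Transcription factors and guidance genes of differentiating sensory neurons were among the apical genes. Neurod1, a basic helix-loop-helix factor of neuroblasts, stood at 15.8, 28.0 and 35.4 CPM at the apex and 7.73, 9.61 and 4.37 CPM at the base (log2 1.93, SE 0.31), and it lost its call without pair 3 (adjusted p = 0.060) and in DESeq2 (adjusted p = 0.070). Pou4f1, the POU factor Brn3a, had 13.4, 47.6 and 33.6 CPM against 9.13, 15 and 5.00 CPM (log2 1.74, SE 0.28), with the apex of pair 1 below the base of pair 2. Sema3a, a secreted repellent of axons, stood at 30.4, 51.8 and 40.9 CPM against 9.83, 13.9 and 11.9 CPM without overlap (log2 1.75, SE 0.22). The musculin gene Msc, a helix-loop-helix repressor, had a log2 difference of 1.97 (SE 0.28).

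The remaining apical genes named were Rgs4, which shortens G protein signals (log2 2.14, SE 0.24), the extracellular matrix gene Hmcn1 (2.13, SE 0.24), T-cadherin, Cdh13 (2.13, SE 0.35), the adhesion receptor Adgrg1 (2.11, SE 0.35) and the adaptor Lcp2 (2.07, SE 0.33). Crtac1 (1.86, SE 0.20), the RNA-binding protein gene Adarb2 (1.75, SE 0.29) and the ubiquitin ligase gene Trim36 (1.5, SE 0.28) completed the list. Rgs4 stood at 41.3, 49.7 and 31.8 CPM at the apex and 10.5, 8.55 and 7.5 CPM at the base, and its shares of thinned cells were 7.74%, 12.5% and 8.26% against 3.38%, 2.46% and 1.33%. Portions did not overlap for 14 of the 15 apical genes, against 6.58% of all tested genes that lay higher at the apex and 5.32% that lay higher at the base without overlap. The naming rule takes only genes already past the test, so this count describes the genes and supports nothing. With DESeq2, 6 of the 30 named genes had an adjusted p above the threshold, namely Cdh13 (0.066), Neurod1 (0.070), Adarb2 (0.080), Pou4f1 (0.085), Adra2c (0.098) and Trim36 (0.198).

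**Figure D2:**
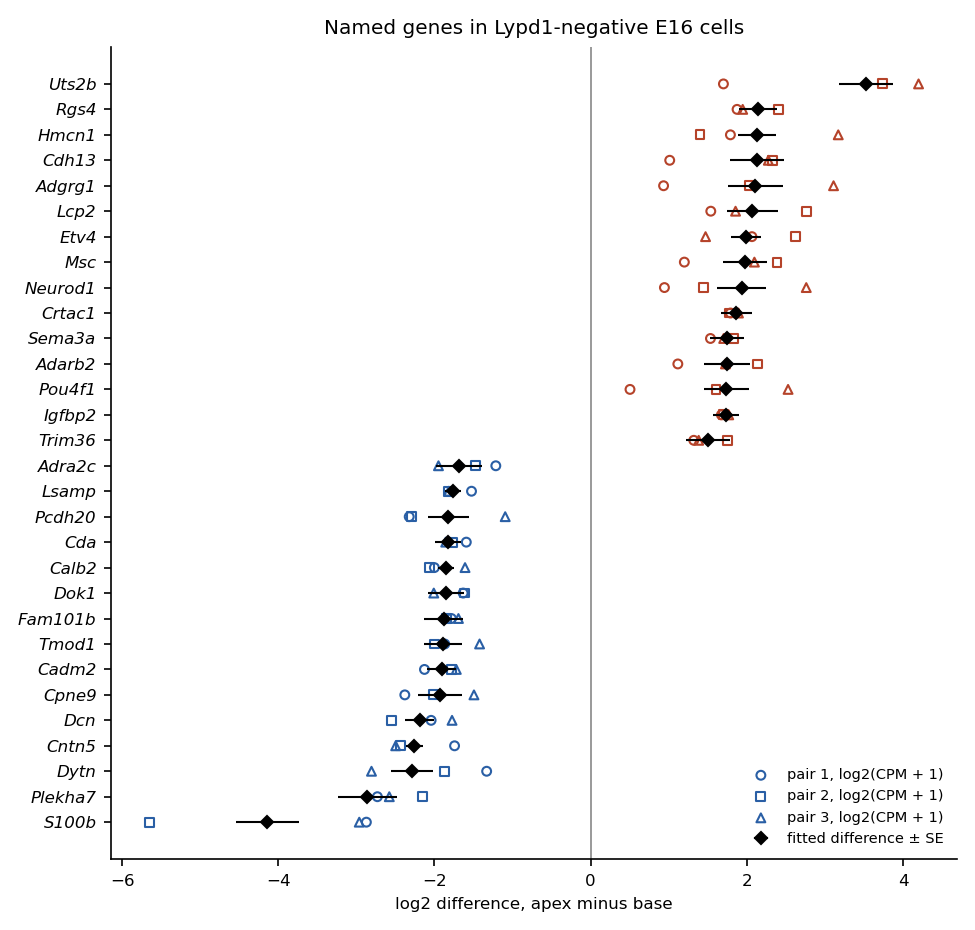
Log2 difference of apex minus base for the 30 named genes in Lypd1-negative cells: the fitted value with its standard error, and the 3 pair differences of log2(CPM + 1) as points. All 3 pairs lie on the side of the fitted value for each gene, from 3.53 for Uts2b to -4.14 for S100b.

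On the neuroblast and immature neuron list 3 of 12 tested members were called higher at the apex and 0 at the base, with a median log2 difference of 0.10 against 0.00070 over all tested genes, of which 3.76% were called in either direction. The other 9 were not called, among them Isl1 and Dcx, a microtubule protein of migrating neurons (log2 -0.02, SE 0.09). Sox11, a factor of newborn neurons, stood at 948, 1583 and 1285 CPM against 764, 884 and 846 CPM (log2 0.57, SE 0.09), without overlap. Nhlh2, a helix-loop-helix factor, stood at 42.5, 44.1 and 42.8 CPM against 20.4, 12.8 and 17.5 CPM (log2 1.31, SE 0.21), and Neurod1 was the other one. Sox11 lost its call without the block (adjusted p = 0.16), and Nhlh2 (0.0501) and Neurod1 (0.070) lost theirs in DESeq2. Neurog1, which drives neuroblast formation, was counted in none of the 6 libraries, and the 18 members summed to 4401 to 5401 CPM at the apex and 4179 to 4446 CPM at the base.

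Over all tested genes 1.48% were called higher at the apex and 2.28% higher at the base. Late maturation genes split, with 2 of 19 tested members called higher at the apex and 5 higher at the base, 12 not called, and a median of -0.25. Both apical ones were neurofilament genes. Nefm stood at 4044, 4778 and 5554 CPM at the apex and 2055, 2441 and 2884 CPM at the base (log2 0.94, SE 0.08, adjusted p = 4.7e-10), and Nefl had a log2 difference of 0.75 (SE 0.08). The heavy neurofilament gene Nefh, which axons gain later than Nefm and Nefl, went the other way, with 68.1, 77.7 and 93.5 CPM against 111, 182 and 196 CPM (log2 -1.07, SE 0.12). The portions did not overlap for any of these genes. Pvalb, the calcium buffer parvalbumin, stood at 758, 712 and 330 CPM at the apex and 929, 1202 and 957 CPM at the base (log2 -0.88, SE 0.12), and it lost its call without the block (adjusted p = 0.19) and in DESeq2 (0.73).

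Calcium-binding proteins were called in 6 of 14 tested cases, 5 of them higher at the base, with a list median of -0.13. Besides Calb2, S100b and Pvalb, the neuronal calcium-binding protein Necab1 was higher at the base, at 69.3, 56.7 and 71.5 against 125, 118 and 137 CPM (log2 -0.98, SE 0.12). Calb1, calbindin, was the member called higher at the apex, at 35.2, 64.4 and 70.3 CPM against 12.6, 26.7 and 24.4 CPM (log2 1.4, SE 0.18). In these sums Calb1 and Calb2 thus differed in opposite directions, which does not place both genes in the same cells, and Calb1 had no overlap between portions. Of all tested genes 3.76% were called, and 4 of the 6 also passed without the block.

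Calls on the FGF and BMP lists are read beside the 3.76% called over all tested genes. FGF and ERK signalling genes were called 3 times higher at the apex and 0 times higher at the base among 15 tested, with a median of 0.47. Besides Etv4, these were Dusp6, a phosphatase that ERK signals induce, at 14.6, 19.6 and 14.7 CPM against 2.81, 2.14 and 1.87 CPM (log2 2.74, SE 0.42), and the related factor gene Etv5 (1.17, SE 0.29). Dusp6 and Etv4 kept their call in DESeq2 and without the block, and Etv5 lost it in both (adjusted p = 0.97 and 0.070). On the BMP and TGF-beta list 3 of 19 were higher at the apex and 1 at the base, with a median of 0.06. The ligand gene Tgfb2 stood at 171, 290 and 274 CPM against 105, 114 and 112 CPM (log2 1.12, SE 0.11), the BMP antagonist Nog differed by 0.78 (SE 0.21), the BMP target Id3 by 0.47 (SE 0.08) and the inhibitory Smad7 by -0.48 (SE 0.11). Tgfb2 passed under each alternative that was run, while Nog and Smad7 lost their calls in DESeq2 and without the block, and Id3 without the block (adjusted p = 0.38).

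On the neurotrophin and GDNF receptor list, which also holds the neurotrophin gene Bdnf, 1 of 6 tested members was called higher at the apex and 1 higher at the base. The calls on this list and the next are read beside the 3.76% called over all tested genes. The GDNF co-receptor Gfra1 was higher at the apex, at 160, 129 and 139 CPM against 95.5, 72.6 and 79.4 CPM (log2 0.77, SE 0.11). Its relative Gfra2 was higher at the base, at 21.9, 20.3 and 22.0 against 51.3, 54.5 and 35.0 CPM (log2 -1.11, SE 0.20), and neither gene's portions overlapped. Gfra2 lost its call in DESeq2 (adjusted p = 0.14). The neurotrophin receptor genes Ntrk2 (adjusted p = 0.80), Ntrk3 (0.69) and Ngfr (0.74) did not pass. On the neuronal transcription factor list 6 of 29 tested members were called higher at the apex and 3 at the base (median 0.01). That list also holds Rbfox3 and Islr2, which are not transcription factors. Gata3, which spiral ganglion neurons need for their development, stood at 636, 740 and 609 CPM against 521, 420 and 364 CPM (log2 0.59, SE 0.09), and Ebf1 differed by 0.43 (SE 0.08). Rbfox3, the NeuN protein of mature neurons, stood at 18.2, 18.2 and 14.1 CPM against 49.9, 58.8 and 41.2 CPM (log2 -1.60, SE 0.20). Of these 9 calls 2 (Pou4f1 and Rbfox3) also passed without the block and 3 (Gata3, Rbfox3 and Ebf1) in DESeq2, and without the block Gata3 had an adjusted p of 0.13 and Ebf1 of 0.38.

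Axon guidance and adhesion genes had 12 calls on 4 lists, against 3.76% over all tested genes. Of 16 semaphorins, plexins and neuropilins, Sema3a and the plexin gene Plxna2 (log2 1.48, SE 0.37) were higher at the apex and Sema6a (-0.38, SE 0.11) at the base. Of 10 slits, netrins and their receptors, Ntng1 (0.77, SE 0.12) and the netrin receptor gene Unc5c (0.50, SE 0.14) were higher at the apex and the receptor gene Neo1 (-0.41, SE 0.10) at the base. Among 16 ephrins and Eph receptors Ephb1 (-0.96, SE 0.26) was the only one called. Of 23 adhesion genes, Cdh13 was higher at the apex and 4 at the base, among them Cntn5, the protocadherin Pcdh9 (-1.86, SE 0.36) and the cadherin Cdh4 (-0.60, SE 0.11). The medians of these lists were 0.17, -0.13, 0.04 and 0.01, and of the 12 called members 5 (Sema3a, Ntng1, Cdh13, Pcdh9 and Cntn5) also passed without the block, and 2 (Sema3a and Cntn5) in DESeq2.

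Genes of synapses and ion channels had 6 calls on 4 lists, which are read beside the 3.76% called over all tested genes. Of 23 synaptic vesicle genes, the complexin Cplx2 was higher at the apex (log2 0.81, SE 0.14) and Snap25 (-0.38, SE 0.10) and Syt7 (-0.35, SE 0.10) at the base, with a median of -0.18, and none of these calls held in DESeq2. Of 14 glutamate genes, the vesicular transporter Slc17a7 (-1.07, SE 0.20) and the receptor gene Grm7 (-1.42, SE 0.32) were higher at the base, with a median of 0.07, and both lost their calls without the block (adjusted p = 0.079 and 0.13). Of 15 potassium channel genes, Kcnip4, a channel-interacting protein, was called at the apex (1.17, SE 0.20, median 0.17). It stood at 34.0, 35.7 and 78.2 CPM against 20.4, 22.4 and 24.4 CPM, and its call was lost without pair 3 (adjusted p = 0.25). Of 21 sodium, HCN and calcium channel genes 0 were called (median -0.20).

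On the remaining pathway lists each call is again read beside 3.76% over all tested genes. Sonic hedgehog signalling had 1 of 5 called, the co-receptor gene Gas1 at the apex (log2 0.44, SE 0.10, median 0.52). Retinoid and thyroid signalling had 1 of 8, the retinoic acid carrier Crabp2 at the apex (0.92, SE 0.24, median 0.03), and Notch signalling 0 of 8 (median 0.06). Among 7 cell cycle genes the inhibitors Cdkn1b (0.75, SE 0.14) and Cdkn1a (0.36, SE 0.09) were called at the apex (median 0.15), genes that hold cells out of division. Immediate early and stress genes, which cells switch on quickly after stimulation, had 3 of 14 called at the apex, namely Dusp1 (0.85, SE 0.13), Fos (0.61, SE 0.13) and Ier2 (0.42, SE 0.12), with a median of 0.08. Cholesterol synthesis had 0 of 19 called (median -0.0049) and glycolysis 1 of 17, Aldoa at the base (-0.32, SE 0.08, median -0.12). Of the calls in this paragraph only that of Dusp1 also passed without the block, and none passed in DESeq2.

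**Figure D3:**
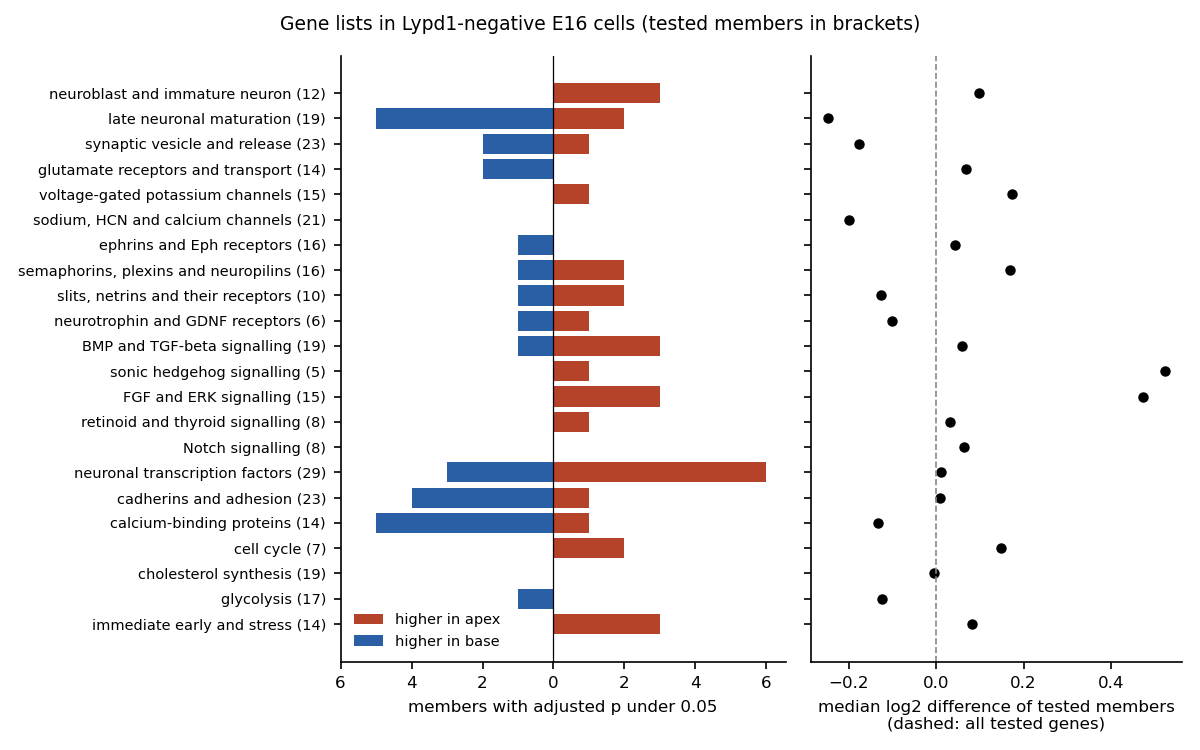
For each gene list, the number of tested members called higher at the apex or at the base in Lypd1-negative cells, and the median log2 difference of apex minus base over tested members. The neuronal transcription factor list has 6 calls at the apex and 3 at the base, calcium-binding proteins 1 and 5, and late maturation 2 and 5. Over all tested genes 3.76% were called.

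Subtype markers were spread over both portions, and their calls are read beside the 3.76% called over all tested genes. Of 6 type IA markers Calb2 and Pcdh20 were higher at the base and 0 at the apex, and the list summed to 704 to 909 CPM at the apex and 952 to 1400 CPM at the base. Of the 4 tested type IB and IC markers other than Lypd1, Calb1 and Pou4f1 were higher at the apex, and Lrrc52 and Trim54 were at 0 in all 6 libraries. That list summed to 128 to 211 CPM at the apex and 102 to 143 CPM at the base. Of 7 type II markers Etv4 and Gata3 were called at the apex, while Prph, the peripherin gene, stood at 259, 310 and 389 against 374, 385 and 313 CPM (log2 -0.17, SE 0.11, adjusted p = 0.52) and Th overlapped between portions. Of 14 general markers of spiral ganglion neurons, Nefl, Gata3, Neurod1 and Shox2 were called at the apex and Snap25 at the base, and the list summed to 14443 to 14852 CPM at the apex and 12525 to 13162 CPM at the base.

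Markers of several other cell types were present. Summed red blood cell markers ran from 78.2 to 447 CPM at the apex and from 36.2 to 355 CPM at the base, with Hbb-bs called higher at the apex (290, 316 and 49.5 against 246, 166 and 23.1 CPM, log2 0.63, SE 0.12). Leaving out every cell with a count of Hbb-bs, Hba-a1 or Hba-a2 kept 215 apical and 389 basal cells but only 10 in basal library 1. In these cells 159 of 6285 tested genes were called. Hbb-bt was not part of this filter. The part of haemoglobin or of other free RNA in the differences was not tested. Hair cell markers summed to 417 to 837 CPM at the apex and 988 to 1271 CPM at the base, which was mostly Pvalb, with Myo6 called higher at the apex (75.4, 77.0 and 82.5 against 49.9, 60.9 and 48.7 CPM) and Gfi1 at 0 in all libraries. Neither Hbb-bs nor Myo6 passed in DESeq2 or without the block. Cochlear epithelium summed to 57.1 to 99.0 against 46.4 to 100 CPM (0 of 2 called), endothelium to 0 to 4.89 against 1.87 to 3.2 CPM, macrophages to 1.22 to 2.44 against 3.12 to 12.8 CPM and melanocytes to 0 to 1.22 CPM against 0. Geniculate markers summed to 148 to 209 against 157 to 228 CPM, all of it P2rx3, an ATP receptor of sensory neurons (log2 -0.10, SE 0.10, adjusted p = 0.74), with Phox2a at 0.

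The share of Calb2-positive cells among the members differed between portions, so the comparison was repeated on the cells that lacked Calb2 as well. Calb2 was counted in 11.0%, 20.1% and 39.3% of apical and 46.3%, 40.8% and 78.7% of basal Lypd1-negative cells, with depth unequal between libraries. On the 465 apical and 321 basal cells with neither gene, 223 of 8428 tested genes were called, 90 higher at the apex and 133 higher at the base, and 186 of them were among the 381. These cells are part of the members, so this overlap is no independent support. Cntn5 stood at 364, 219 and 151 CPM at the apex and 1129, 1254 and 897 CPM at the base in these cells (log2 -2.22), and Lsamp at 105, 62.5 and 95.1 against 309, 251 and 377 CPM (log2 -1.86). Etv4 had 69.5, 110 and 82.7 CPM against 14.9, 16.6 and 58.1 CPM (log2 1.73), and Uts2b 20.4, 62.5 and 62.0 CPM against 8.10, 3.70 and 2.90 CPM (log2 2.95). Portions did not overlap for these 4 genes.

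Cells with at least 1 Calb2 molecule gave a smaller set, 158 at the apex and 379 at the base. In them 108 of 7569 genes were called, 88 of which were among the 381. Cntn5 stood at 610, 369 and 286 CPM at the apex and 1502, 1520 and 1241 CPM at the base (log2 -1.94). Of the genes named for a higher level at the apex, only Crtac1 could be tested in this set. Etv4 and Uts2b were among those that could not. The apical library of pair 1 held 17 cells and counted neither Etv4 nor Uts2b.

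The same libraries were used to ask whether position differed in the same way in the cells with Lypd1. In those, 690 of 9497 genes (7.27%) were called, 270 (2.84%) higher at the apex and 420 (4.42%) higher at the base, and because both classes come from the same 6 libraries their calls are not independent. Cntn5 had a log2 difference of -2.26 (SE 0.11) in negative and -2.63 in positive cells, Lsamp of -1.77 and -1.88, Uts2b of 3.53 and 4.56, and Igfbp2 of 1.73 and 2.21. The difference between classes was tested directly, as an interaction of position and class with the library as a block, and 143 of 10543 genes (1.36%) passed, 82 (0.778%) with the negative class shifted further toward the apex and 61 (0.579%) with the positive class shifted so. Lsamp (adjusted p = 0.96), Uts2b (0.82) and Igfbp2 (0.61) did not pass, whereas Cntn5 did, with a difference of 0.38 (adjusted p = 0.011). Calb2 passed with 0.95 (adjusted p = 0.00081), being at -1.85 in negative and -2.71 in positive cells.

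Pou4f1 had the largest shift toward the apex in the negative class. In negative cells it stood at 13.4, 47.6 and 33.6 CPM at the apex and 9.13, 15 and 5.00 CPM at the base. In positive cells it was higher in every library and its portions overlapped, at 127, 225 and 225 against 137, 166 and 183 CPM. The interaction was 1.64 (SE 0.28, adjusted p = 2.5e-05). Hs3st1, a heparan sulfate sulfotransferase, went the other way round: its portions overlapped in negative cells (88.7, 88.2 and 104 against 112, 107 and 91.9 CPM) and separated in positive cells (21.2, 14.0 and 14.0 against 60.9, 33.2 and 50.5 CPM), with an interaction of 1.60 (SE 0.24). Thrb, a thyroid hormone receptor, stood at 23.1, 28.0 and 28.7 against 14.8, 19.2 and 18.7 CPM in negative cells and at 19.2, 24.4 and 30.6 against 48.5, 35.7 and 48.1 CPM in positive cells (interaction 1.48, SE 0.29). The fitted difference of Thrb was 0.57 in negative cells, which did not pass (adjusted p = 0.19), and -0.86 in positive cells. Gldn, gliomedin of the nodes of Ranvier, was higher at the base in both classes (log2 -1.27 and -2.76, interaction 1.56, SE 0.37), and Mir99ahg, a microRNA host gene, passed as an interaction (1.47, SE 0.39) without passing in either class. In the apical libraries of positive cells Gldn was counted only 1, 6 and 15 times.

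Etv4, Sema6d, Maml3, Tacc2 and Fam46a had the larger shift toward the apex in positive cells. Etv4 stood at 62.0, 97.3 and 64.2 against 14.0, 15 and 22.5 CPM in negative cells and at 131, 105 and 93.0 against 1.24, 15.3 and 5.62 CPM in positive cells, an interaction of -2.11 (SE 0.42). It was thus higher at the apex in both classes. Sema6d, a transmembrane semaphorin, overlapped between portions in negative cells (15.8, 18.9 and 22.6 against 16.9, 13.9 and 18.1 CPM) and separated in positive cells (26.3, 31.9 and 33.9 against 6.22, 7.66 and 6.42 CPM), with an interaction of -2.02 (SE 0.42). Maml3, a coactivator of Notch signals, had an interaction of -1.60 (SE 0.40) and Tacc2 of -1.42 (SE 0.34). Fam46a had -3.46 (SE 0.81), a fitted value that rests on 3 molecules over all 3 basal libraries of positive cells and 16 in the basal libraries of negative cells. The others were also low in the basal libraries of positive cells. There Etv4 was counted 1, 6 and 7 times and Sema6d 5, 3 and 8 times. Maml3 was counted 4, 3 and 12 times and Tacc2 4, 10 and 14 times.

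**Figure D4:**
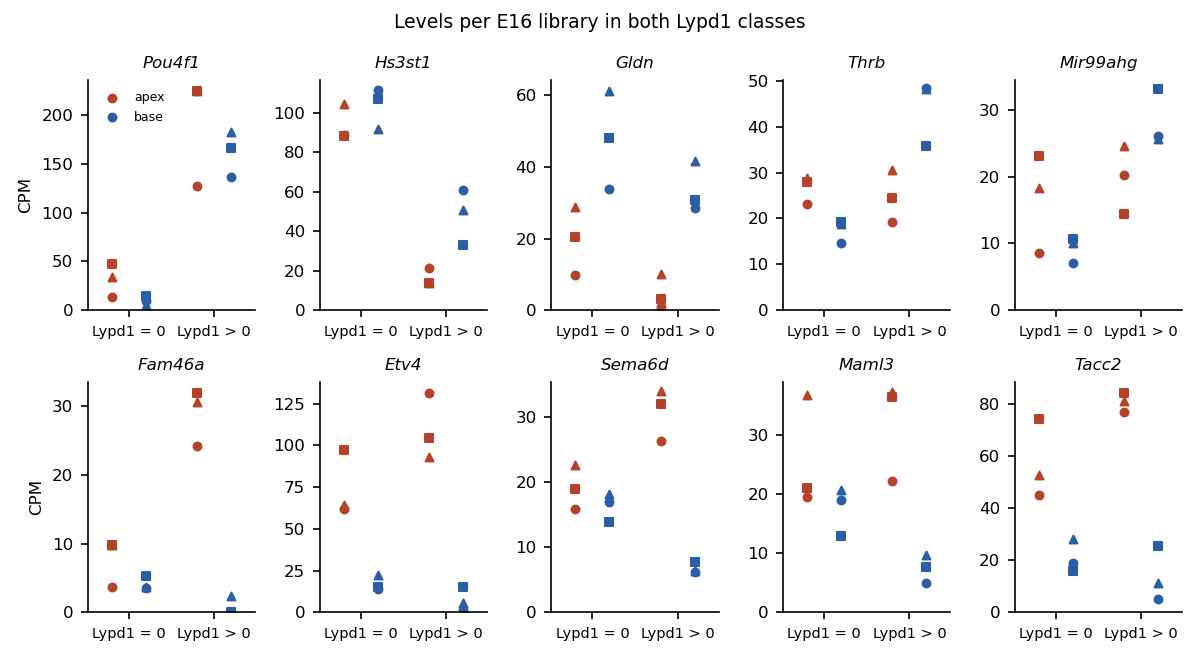
CPM per library of the 10 genes with the largest position difference between both Lypd1 classes, at the apex and at the base, in Lypd1-negative and Lypd1-positive cells. Pou4f1 is above 100 CPM in all positive libraries (127 to 225 CPM) and below 50 CPM in all negative ones, and Hs3st1 separates by position in the positive class.

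None of these 10 interactions passed without a block, a fit in which 0 genes were called in edgeR, 343 had an unadjusted p under 0.05, and DESeq2, with the block, called 26. Of the 10 genes, DESeq2 gave an adjusted p for 4, of which Hs3st1 and Etv4 passed and Pou4f1 (0.68) and Tacc2 (0.40) did not. Pou4f1, Hs3st1 and Thrb passed whichever pair was left out. Without pair 1 the calls of Fam46a, Gldn, Maml3 and Tacc2 were lost (adjusted p from 0.054 to 0.20), without pair 2 those of Fam46a, Gldn, Maml3 and Mir99ahg (0.11 to 0.60), and without pair 3 those of Etv4, Maml3, Mir99ahg, Sema6d and Tacc2 (0.080 to 0.68).

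Genes that separated the portions at E16 were set beside the change from E14 to E18 in Lypd1-negative cells, in 6 libraries that the position comparison did not use. Between these ages 3512 of 9752 genes (36.0%) passed in edgeR, 1864 (19.1%) higher at E18 and 1648 (16.9%) higher at E14. The dissociation enzyme changed with age, so age and enzyme cannot be told apart. The rule may also take different cells at each age. Calb2 was counted in 2.14%, 0.413% and 0.221% of Lypd1-negative cells at E14 and in 89.5%, 88.3% and 92.1% at E18. A change in which cells lack Lypd1 and a change within cells cannot be told apart either. Of the 148 genes higher at the apex that could be tested by age, 86 (58.1%) were higher at E14 and 16 (10.8%) higher at E18, with a median log2 difference of E18 minus E14 of -1.0. Of the 217 genes higher at the base, 160 (73.7%) were higher at E18 and 10 (4.61%) higher at E14, with a median of 1.60. Over all 9441 genes tested in both, 15.4% were higher at E14 and 19.4% higher at E18, and the median was -0.0042. With the genes called in the cells that lacked Calb2 as well, 54 of 89 apical genes were higher at E14 and 93 of 129 basal genes were higher at E18.

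The named genes followed both courses in the summed Lypd1-negative cells of each age. Pou4f1 fell from 262, 287 and 289 CPM in the E14 libraries to 0.612, 1.14 and 0 CPM at E18 (log2 -8.44, SE 0.36). Neurod1 fell from 353, 964 and 476 CPM to 0, 4.57 and 11.1 CPM, Uts2b from 205, 282 and 314 CPM to 3.67, 12.6 and 5.55 CPM, and Rgs4 from 219, 355 and 297 CPM to 6.74, 5.71 and 4.16 CPM. For each of them the E16 apex lay between the ages. Calb2 rose from 4.39, 0.804 and 0.473 CPM to 2841, 1982 and 2178 CPM (log2 10.55, SE 0.44), and Dcn from 8.77, 7.24 and 3.78 to 39.2, 59.4 and 44.4 CPM. Of the 15 named apical genes 12 were called higher at E14, 0 higher at E18 and 2 not called, and 1, Lcp2, could not be tested by age. Lcp2 was low, at 3.66, 0 and 0.473 CPM at E14 and a higher 5.51, 10.3 and 9.70 CPM at E18. Of the 15 basal genes 9 were called higher at E18, 0 higher at E14 and 5 not called, and 1, Adra2c, could not be tested.

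Some genes were large by position and did not pass by age. Lsamp stood at 157, 165 and 151 CPM at E14 and 200, 131 and 133 CPM at E18 (log2 0.20, SE 0.18, adjusted p = 0.42), between its E16 apical and basal levels. Dytn (0.20, SE 0.56, adjusted p = 0.82), Plekha7 (0.94, SE 0.47, 0.14), Tmod1 (0.86, adjusted p = 0.097), Cdh13 (-0.71, SE 0.34, 0.12) and Crtac1 (-0.63, SE 0.29, 0.11) did not pass either. Nefm was at -0.42 (adjusted p = 0.13), and Rbfox3 at -0.01 (0.99).

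The genes that ran against the common direction were 16 higher at the apex and at E18, and 10 higher at the base and at E14. The first set, described after its values were seen, included the retinoic acid carrier Crabp2 (apex minus base 0.92, E18 minus E14 2.06), the BMP antagonist Nog (0.78 and 3.03), Id3 (0.47 and 1.09), the adhesion molecule Opcml (0.84 and 0.64) and the cell cycle inhibitor Cdkn1a (0.36 and 2.57). Their E16 levels were 32.3, 33.4, 645, 191 and 347 CPM on average at the apex and 17.6, 19.6, 457, 103 and 263 CPM at the base, in the same order. The second set included Grxcr1, a gene of hair bundles (-2.13 and -2.84), Pcdh9 (-1.86 and -2.61), the glypican Gpc6 (-1.37 and -1.45), the latrophilin Adgrl2 (-0.93 and -1.31) and the transcription factor Onecut2 (-0.45 and -1.14). Grxcr1 was low in both portions, at 2.18 CPM on average at the apex and 8.99 CPM at the base.

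**Figure D5:**
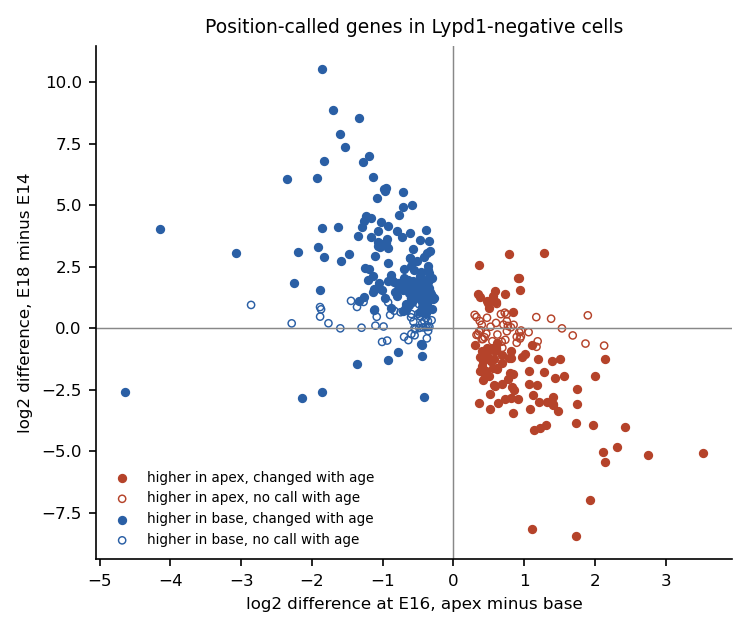
Genes called by position in E16 Lypd1-negative cells, with the log2 difference of apex minus base on the horizontal axis and that of E18 minus E14 on the vertical axis. Of 217 genes higher at the base 160 were called higher at E18 and 10 higher at E14. Of 148 higher at the apex 86 were called higher at E14 and 16 higher at E18. Open points are genes with no call by age.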

How the data were processed

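The authors deposited a table of UMI counts per gene and cell, not normalized, and a table of natural log (ln) values of each count, with 1 added after scaling to the total of its cell. Per the submitters' processing notes, Cell Ranger 3.0.1, Seurat 3.2 and the mm10 build were used, and the filters on cells are not given in the sources used here. The count table held 17999 of the 26655 genes of the normalized table, so counts of the other 8656 (28.2% of UMIs) were computed back from the latter, all whole within 0.001. The library of a cell was read from the numeric suffix of its name, taken as the sample number that the descriptions give, a link the labels leave unstated. All 2478 E16 cells were kept, no doublet caller was run, and 0 of their barcodes occurred in more than 1 library.

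Counts were summed per library and compared in edgeR 4.0.16 (R 4.3.3) with TMM, filterByExpr, the quasi-likelihood test and Benjamini-Hochberg adjustment. Apex and base were blocked by replicate number, since the labels describe the ganglia of a replicate as cut into both portions. Deviations from the portion means correlated within each number (0.367, 0.246 and 0.399) and not across numbers (-0.291 to -0.0639). The class comparison had 12 sums with library as block, and the age comparison had no block. SE is the log2 difference over the square root of F, and CPM is the gene's count scaled to the total of the summed profile. Thinning drew 2500 UMIs per cell, and left out 0, 8 and 2 apical and 1, 82 and 0 basal member cells that were shallower. The fits were also run on simulated counts with known changes. Those counts had the same extra spread for every gene, so they cannot show how often the calls in these data are false.

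Named genes were, per direction, the 15 largest log2 differences past the threshold with at least 20 CPM on average in the higher portion and the same sign in 3 pairs, the 5 largest in each direction of the class comparison, and up to 4 members of each list with the smallest p. Lypd1, mitochondrial, ribosomal, haemoglobin and unnamed genes were left out of the genes named by size of difference. So were Xist, Tsix and the Y-linked genes Ddx3y, Uty, Kdm5d and Eif2s3y, while other sex-linked genes were kept. From the lists only Lypd1 was left out. The members, the 22 pathway lists and 13 marker lists were chosen with earlier results of these data known. Positions are from GENCODE for mm10. Alternatives were DESeq2 1.42.0, no block, no TMM, no filter, deeper, thinned, Calb2-free and haemoglobin-free cells, and each pair left out. Haemoglobin-free cells had no count of Hbb-bs, Hba-a1 or Hba-a2.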

Additional observations from a re-analysis of the deposited data

Results flagged for a closer look

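For 10 genes the apex against base difference itself differed between Lypd1-negative and Lypd1-positive cells of the same libraries, by the interaction test in edgeR with the library as a block. The values are the log2 difference of apex minus base in negative cells minus that in positive cells. Pou4f1 was at 1.64, Hs3st1 at 1.60, Gldn at 1.56, Thrb at 1.48 and Mir99ahg at 1.47, and each of these lay further toward the apex in the negative class. Fam46a was at -3.46, Etv4 at -2.11, Sema6d at -2.02, Maml3 at -1.60 and Tacc2 at -1.42, and each of these lay further toward the apex in the positive class. All 10 passed the adjusted threshold, and 0 of the 10 passed in the fit with no block.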

How the results depend on the processing

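The count of 381 genes by position in Lypd1-negative cells became 93 with DESeq2, 223 in cells that also lacked Calb2, 108 in cells with Calb2 above 0 (a set chosen after seeing the data), 159 without haemoglobin-positive cells, 126 in cells of at least 5000 UMIs (4 left in basal library 2) and 216 after thinning and selecting again. Leaving out 1 pair gave 240 to 558. In Lypd1-positive cells 690 became 208 with DESeq2, 300 in cells of at least 5000 UMIs and 426 to 820 without 1 pair. The class comparison went from 143 to 26 with DESeq2 and to 56 to 105 without 1 pair, the fewest without pair 3, and Fam46a and Mir99ahg lost their calls in cells of at least 5000 UMIs. The age comparison went from 3512 to 2257 in such cells and to 2476 to 4112 without 1 library. The mean Lypd1-negative share at the apex moved from 45.9% to 53.8% after thinning.

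With no replicate block the counts were 104 in negative cells, 292 in positive cells and 0 for the class comparison (edgeR, 343 at an unadjusted p under 0.05). A block by the number alone gave 3263 in the age comparison. Library totals in place of TMM gave 424 genes in negative cells, 197 of them (46.5%) higher at the apex against 39.4% with TMM, and no filter gave 463. The 30 named genes passed in every setting in which they could be tested, except 6 in DESeq2, Calb2 with no block and Neurod1 without pair 3. Not all of them could be tested in each. Only 14 of the 30 could be tested in cells with Calb2 above 0, and 14 without haemoglobin-positive cells. After thinning 24 could be tested, and in cells that also lacked Calb2 27. Among 75 genes printed from the rule and the lists, 37 also passed in DESeq2 and 44 with no block. A result near 1 molecule per library is limited by depth, foremost in basal library 2.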
